A study of Homo sapiens with 6 samples.

Results

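The genes described here encode 10 subunits of the ring-shaped complexes that fold and hold chromosomes, condensin and cohesin, in C4-2 cells, a long-established line of prostate cancer cells that descends from LNCaP. They were chosen by name, as SMC2, SMC4, NCAPD2, NCAPG, NCAPH, NCAPD3, NCAPG2, NCAPH2, SMC1A and SMC3, and all 10 were found among the 28503 lines of the deposited expression table and among the 12934 genes kept for reaching 1 FPKM in any column. FPKM are fragments scaled by transcript length and by the number of mapped fragments, so levels of different genes can be set side by side. Polyadenylated RNA was sequenced from cells at passages 10 to 15 given vehicle, GSK126, astemizole, lentivirus with a scramble shRNA, or lentivirus with 1 of 2 EZH2 shRNAs. GSK126 inhibits the catalytic activity of EZH2, the methyltransferase of Polycomb repressive complex 2, and astemizole is an antihistamine reported to disturb the binding of EZH2 to its partner EED. The sources used here do not give doses or times. The labels list 6 libraries, 1 for each condition or hairpin. The table has 5 columns, in which the knockdown is a single value set by the authors, with no hairpin named. No condition has a replicate, so no difference below carries a test or an error, and each describes these libraries only.

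Condensin and cohesin each rest on a pair of SMC ATPases closed into a ring by a kleisin subunit. Condensin compacts and stiffens mitotic chromosomes, and it exists in a form I and a form II that share SMC2 and SMC4 but differ in their kleisin (NCAPH or NCAPH2) and in their HEAT-repeat subunits (NCAPD2 and NCAPG, or NCAPD3 and NCAPG2). Cohesin, built on SMC1A and SMC3, extrudes chromatin loops in interphase and holds sister chromatids together until anaphase, so it is needed in resting as well as dividing cells. Many condensin genes belong to the cell-cycle genes that are transcribed mainly in late S phase, G2 and mitosis.

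Ratios between columns are on the log2 scale of FPKM + 1, which makes the differences of low genes look smaller. EZH2, the targeted gene, stood at 26.5 FPKM with vehicle and 24.6 with scramble shRNA, while GSK126 had 17.5, astemizole 9.48 and the knockdown column 3.35. The table has no read totals, so the depth is unknown; the steps between low values put the FPKM of 1 read, relative to vehicle, at 0.948 for GSK126, 1.05 for astemizole and 0.858 for scramble shRNA. All 8 luminal prostate markers were at 1 FPKM or more in every column, with sums of 3345 to 5901 FPKM, while the 4 fibroblast markers summed to at most 2.82. The 8 liver markers summed to 176 FPKM with GSK126, 20.4 with vehicle and 2.04 to 5.61 in the other columns, and the 3 blood cell markers to 7.65 with GSK126 and at most 1.03 elsewhere, nearly all of it LYZ. Of the basal markers, KRT14 alone reached 1 FPKM.

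Because most of the subunits stood apart from their controls in the same direction, the start regions of their genes were searched for the sequence elements known from cell-cycle promoters. RefSeq windows on GRCh38.p14, from 250 bases before to 50 after an annotated start, were at hand for 9 of the 10 genes (13 windows, all but NCAPH2). The starts used in these cells were not measured. The motifs, read on both strands, were the cell cycle genes homology region as TTTGAA or TTTAAA (the latter reads the same on both strands), the CCAAT box, and E2F sites as TTTCCCGC, TTTCGCGC, TTTGCCGC or TTTGGCGC. None of the matches in these 13 windows overlapped another. The 4 windows below belong to NCAPG and NCAPH, the members lowest in the knockdown column, SMC4, the 1 member at least 2-fold lower than vehicle with GSK126, and SMC1A, a cohesin gene. Of the SMC1A windows, window 2 is shown, which holds the only match of this gene. Capitals mark the motif matches.
NCAPG promoter, chr4:17810729-17811028, plus strand: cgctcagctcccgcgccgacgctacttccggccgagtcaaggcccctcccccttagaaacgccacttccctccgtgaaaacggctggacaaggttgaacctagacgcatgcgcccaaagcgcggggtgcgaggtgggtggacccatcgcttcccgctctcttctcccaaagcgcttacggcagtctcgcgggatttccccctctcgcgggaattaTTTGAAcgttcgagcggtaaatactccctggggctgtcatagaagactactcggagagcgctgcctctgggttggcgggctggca
NCAPH promoter, chr2:96335516-96335815, plus strand: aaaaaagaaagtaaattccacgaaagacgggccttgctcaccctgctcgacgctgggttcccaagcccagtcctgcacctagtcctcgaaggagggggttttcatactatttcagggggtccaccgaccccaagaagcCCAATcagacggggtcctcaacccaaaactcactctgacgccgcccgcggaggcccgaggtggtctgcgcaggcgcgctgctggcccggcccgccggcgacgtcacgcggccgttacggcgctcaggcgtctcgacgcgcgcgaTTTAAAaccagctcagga
SMC4 promoter, chr3:160399400-160399699, plus strand: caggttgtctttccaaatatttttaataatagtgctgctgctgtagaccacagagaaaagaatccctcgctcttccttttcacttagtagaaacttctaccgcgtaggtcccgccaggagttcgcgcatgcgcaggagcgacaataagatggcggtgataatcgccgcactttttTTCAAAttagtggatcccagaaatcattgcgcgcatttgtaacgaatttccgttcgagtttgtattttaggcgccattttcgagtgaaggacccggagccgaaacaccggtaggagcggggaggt
SMC1A promoter, chrX:53422605-53422904, minus strand: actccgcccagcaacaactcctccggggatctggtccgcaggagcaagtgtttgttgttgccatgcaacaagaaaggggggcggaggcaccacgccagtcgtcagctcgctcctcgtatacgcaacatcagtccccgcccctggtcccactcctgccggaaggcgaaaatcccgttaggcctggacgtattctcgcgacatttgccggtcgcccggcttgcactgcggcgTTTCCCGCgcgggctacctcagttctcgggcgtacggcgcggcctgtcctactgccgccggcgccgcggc

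TTTGAA was present in 7 of the 9 genes with a window (SMC2, SMC4, NCAPD2, NCAPG, NCAPD3, NCAPG2 and SMC3), against 18.2% of all 27305 genes with a window, or 7 of 13 windows against 15.2% of 35116. In NCAPG it began 35 bases before the annotated start, in SMC4 at -75 on the reverse strand, in SMC2 at -3 on the reverse strand and in NCAPG2 at position 36 after the start. In NCAPD2 it began at -145 and in NCAPD3 at -3. NCAPH held no TTTGAA but had TTTAAA at position 33. That made 1 of the 9 genes with TTTAAA, beside 14.5% of all genes with a window and 12.2% of all windows. CCAAT was found in 3 of the 9 genes, with 4 matches in NCAPD2, 2 in NCAPD3 and 1 in NCAPH, beside 39.7% of all genes with a window. An E2F site of the form TTTCCCGC was found in 1 window each of NCAPD3 and SMC1A, a motif held by 1.63% of all windows. SMC3, whose knockdown ratio was the nearest to 0 of the 10, held TTTGAA too, at -151, so the match was not limited to condensin genes.

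Among the 10 members, the SMC pair of condensin is shared by forms I and II. SMC4 stood at 90.1 FPKM with vehicle and 63.8 with scramble shRNA, while GSK126 had 39.0, astemizole 13.9 and knockdown 14.8. SMC2, its partner ATPase, stood at 25.1 and 22.0 FPKM in the controls and at 14.7, 5.91 and 4.43 in those 3 perturbed columns. Both genes were lower in each perturbed column than in either control column. SMC4 exceeded SMC2 in every column, with a ratio of 3.59 and 2.89 in the vehicle and scramble columns and of 2.65, 2.35 and 3.34 with GSK126, astemizole and knockdown. Between the 2 controls SMC4 had a log2 ratio of -0.49 for scramble shRNA against vehicle, which was -0.23 after rescaling each column to TPM. Its locus overlaps IFT80 and TRIM59 on the opposite strand and holds MIR15B and MIR16-2 by the GENCODE annotation, and the sources used here do not say whether the counting used strand, so reads of these genes may be mixed.

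Among the 3 subunits particular to condensin I, the kleisin gene NCAPH stood at 22.7 FPKM with vehicle and 22.0 with scramble shRNA, while GSK126 had 12.8, astemizole 4.34 and knockdown 1.63. NCAPG, a HEAT-repeat subunit, stood at 18.8 and 16.4 FPKM in the controls and at 10.6, 2.42 and 0.946 in the perturbed columns in that order. These were the lowest members in the knockdown column, at 5.79% of the scramble level for NCAPG and 7.40% for NCAPH. NCAPD2, the other HEAT-repeat subunit, was more abundant, at 47.7 and 42.6 FPKM in the controls and 31.5, 12.6 and 9.00 in the perturbed columns. It remained at 21.1% of its control with knockdown and 26.3% with astemizole, so the 3 proteins of 1 complex were not lower to the same degree in their transcripts. By the GENCODE annotation NCAPD2 overlaps MRPL51 and NCAPG overlaps LCORL, each on the opposite strand, so reads may be mixed here too. In position among all genes, NCAPG lay above 62.6% of genes in the scramble column and above 7.79% in the knockdown column.

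Condensin II is nuclear throughout the cell cycle. NCAPG2, a HEAT-repeat subunit, stood at 31.7 FPKM with vehicle and 31.6 with scramble shRNA, while GSK126 had 21.8, astemizole 7.69 and knockdown 5.81. NCAPH2, the kleisin, stood at 29.5 and 21.8 FPKM in the controls and at 19.3, 16.7 and 10.0 in the perturbed columns, and its scramble value was closer to GSK126 than to vehicle. NCAPD3 stood at 17.9 and 24.1 FPKM in the controls and at 12.2, 6.21 and 9.29 in the perturbed columns. This HEAT-repeat subunit, whose gene also belongs to commonly used androgen response gene sets, was higher with scramble shRNA than with vehicle by a log2 ratio of 0.41, and its perturbed columns lay below both controls. NCAPD3 overlaps JAM3 and VPS26B on the opposite strand by the same annotation.

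Cohesin differed less than condensin I. SMC3 stood at 41.1 FPKM with vehicle and 35.6 with scramble shRNA, while GSK126 had 28.7, astemizole 21.0 and knockdown 25.4. SMC1A stood at 19.9 and 24.3 FPKM in the controls and at 17.3, 12.7 and 12.4 in the perturbed columns. Both were lower in all 3 perturbed columns than in both controls, yet no ratio of either reached 2-fold. In the knockdown column SMC1A was at 51.1% and SMC3 at 71.3% of scramble, and with astemizole they were at 63.6% and 50.9% of vehicle. SMC1A overlaps RIBC1 on the opposite strand by the same annotation.

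**Figure D1:**
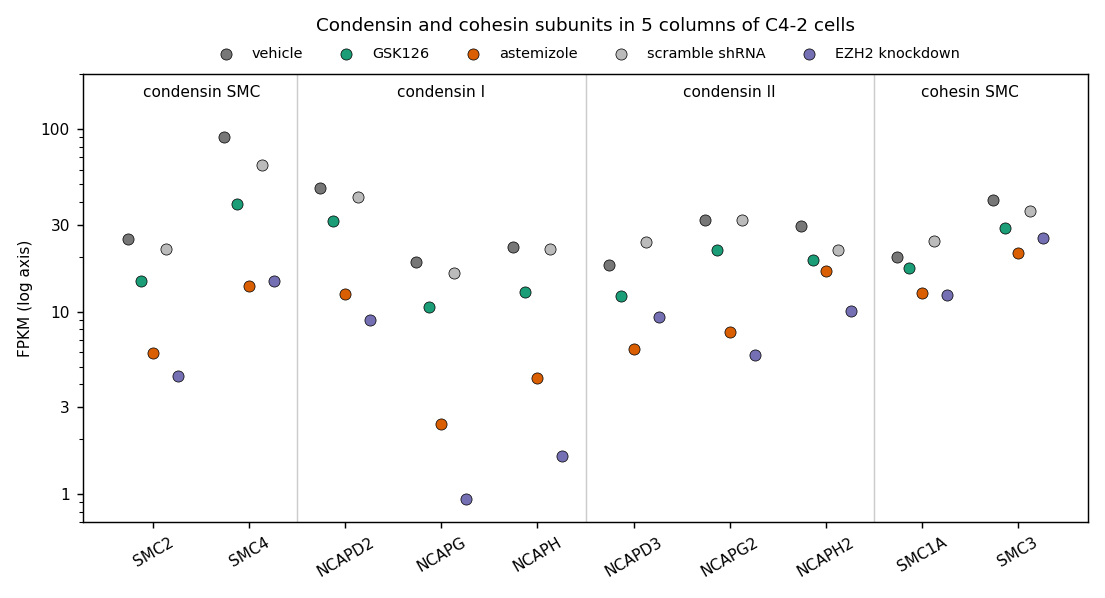
FPKM (log axis) of the 10 subunits, 1 point per column of the table, with vehicle and scramble shRNA in grey. NCAPG and NCAPH reach 0.946 and 1.63 FPKM in the knockdown column, while SMC3 stays at 21.0 FPKM or more in every column.

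GSK126 against vehicle addressed transcripts that differ when EZH2 catalysis is inhibited. All 10 subunits were lower with GSK126, by a median log2 ratio of -0.59, beside a median of -0.04 over all 12934 genes. SMC4 alone was at least 2-fold lower, at -1.19, and 0 members were higher, beside 0.951% of all genes at least 2-fold lower and 1.05% higher. At 1.5-fold, 5 of the 10 were lower (SMC4, NCAPH at -0.78, NCAPG at -0.76, SMC2 at -0.73 and NCAPH2, just past the threshold, at -0.59), beside 6.39% of all genes. NCAPD2 had -0.58, NCAPG2 -0.52, NCAPD3 -0.51, SMC3 -0.51 and SMC1A -0.20. Rescaling each column to TPM moved the median of all genes from -0.04 to 0.15; the median of the subunits was then -0.38, SMC4 had -0.98 and SMC1A 0.01, so that the direction of SMC1A turned. Of the 5 past 1.5-fold, only SMC4 and NCAPH, at -0.59, were still past it. NCAPG then had -0.57, SMC2 -0.54 and NCAPH2 -0.39. After that rescaling 71 genes in all were at least 2-fold lower and 285 higher, in place of 123 and 136. Against the scramble column NCAPD3 was the lowest at -0.92, then NCAPH at -0.74 and SMC4 at -0.70, and no member reached 2-fold. NCAPG, SMC2 and NCAPH2 fell short of 1.5-fold there too. The liver markers given above were higher in the GSK126 column, and their part in these ratios was not tested.

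The question behind astemizole against vehicle was what differs when the contact between EZH2 and EED is targeted. The median log2 ratio of the 10 subunits was -1.88, beside -0.06 over all genes. At least 2-fold lower were 7 of the 10, and 0 were higher, beside 5.5% of all genes lower and 3.53% higher. All 5 subunits of condensin I were among the 7: SMC4 at -2.61, NCAPG at -2.53, NCAPH at -2.15, SMC2 at -1.91 and NCAPD2 at -1.84. Of the condensin II subunits NCAPG2 had -1.91 and NCAPD3 -1.39, while its kleisin NCAPH2 had -0.79. The cohesin genes SMC3 and SMC1A had -0.94 and -0.61. Only 65 of all 12934 genes had a lower ratio than SMC4 and 76 a lower one than NCAPG, whereas 1144 lay below NCAPH2 and 1755 below SMC1A. GSK126 and astemizole share the vehicle column, so their ratios are not independent of each other. SMC4 and NCAPG were close in order with astemizole: as a share of vehicle FPKM NCAPG was the lower, at 12.9% against 15.4%.

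The knockdown column against scramble shRNA addressed transcripts that differ when EZH2 itself is depleted. The median log2 ratio of the 10 subunits was -2.06, beside 0.03 over all genes. All 8 condensin genes were at least 2-fold lower, neither cohesin gene was, and 0 were higher, beside 5.1% of all genes lower and 1.93% higher. NCAPG had -3.16 and NCAPH -3.13, and 65 and 68 genes of all 12934 had lower ratios. NCAPG2 followed at -2.26, NCAPD2 at -2.12, SMC2 at -2.09 and SMC4 at -2.04. NCAPD3 had -1.29, NCAPH2, just past the threshold, -1.05, SMC1A, just short of it, -0.92, and SMC3 -0.47. With vehicle as the control NCAPD3 had -0.88 and 7 members were at least 2-fold lower. In bulk RNA, fewer cells in the phases that transcribe these genes and less RNA of them per cell cannot be told apart, here or with the drugs.

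By the median of the subunits, the 2 control columns differed less. Scramble shRNA against vehicle gave a median of -0.17 for the subunits and -0.11 for all genes, with 0 of the 10 past 2-fold in either direction, beside 0.85% of all genes lower and 0.17% higher. After TPM rescaling these shares were 0.634% and 0.649%, or 82 and 84 genes in place of 110 and 22. With GSK126 the genes at least 2-fold lower numbered 123, and 71 after that rescaling. Over all genes that count was thus not clearly smaller between the controls. On the FPKM scale member ratios ran from -0.49 for SMC4 and -0.42 for NCAPH2 to 0.27 for SMC1A and 0.41 for NCAPD3, and after TPM rescaling NCAPD3 had 0.67 and SMC1A 0.54. On that FPKM scale the GSK126 ratios of NCAPD3, NCAPG2 and SMC3 were about as far from 0 as the SMC4 ratio between the controls, and those of the condensin I genes with astemizole or knockdown were all farther, at -1.84 or lower. The GSK126 ratio of SMC1A, -0.20, was nearer to 0 than its own ratio between the controls. After TPM rescaling, every GSK126 member ratio but that of SMC4, -0.98, was nearer to 0 than the NCAPD3 ratio between the controls.

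**Figure D2:**
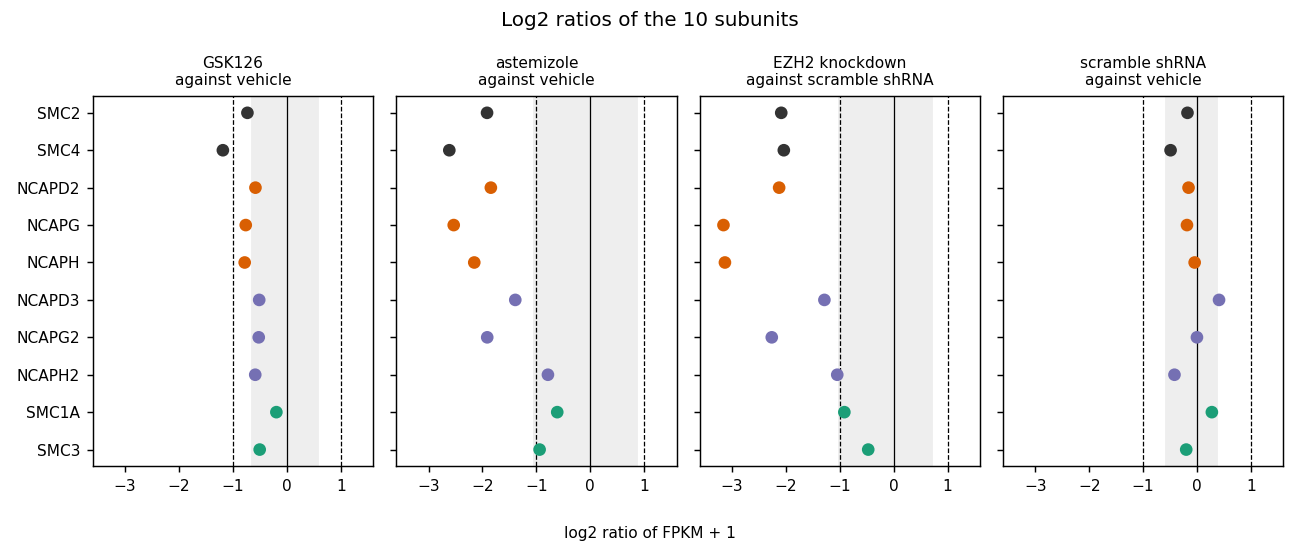
Log2 ratios of FPKM + 1 for the 10 subunits in 4 comparisons, 1 point per gene (black, shared condensin SMC pair; orange, condensin I; purple, condensin II; green, cohesin). Grey bands span the 5th to 95th percentile of all 12934 genes and dashed lines mark 2-fold; 7 subunits lie past the lower line with astemizole and 8 with knockdown.

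The balance between the complexes was followed within each column, a measure that scaling of a column cannot move. Summed FPKM of the condensin I subunits NCAPD2, NCAPG and NCAPH over that of the condensin II subunits NCAPD3, NCAPG2 and NCAPH2 was 1.13 with vehicle, 1.04 with scramble shRNA and 1.03 with GSK126. It was 0.632 with astemizole and 0.461 in the knockdown column. Of the 3 matched pairs the kleisins differed most with astemizole and knockdown, with an NCAPH to NCAPH2 ratio of 0.771 with vehicle, 1.01 with scramble shRNA, 0.663 with GSK126, 0.260 with astemizole and 0.162 with knockdown. NCAPG over NCAPG2 was 0.592, 0.517, 0.489, 0.314 and 0.163 in that order, and NCAPD2 over NCAPD3 was 2.66, 1.77, 2.57, 2.02 and 0.969. The last of these was lower with scramble shRNA than with astemizole, so for this pair the controls spanned the value seen with the drug.

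The SMC pairs gave a larger shift, a measure added after the values were seen. SMC1A and SMC3 together amounted to 0.530 times the sum of SMC2 and SMC4 with vehicle, 0.698 times with scramble shRNA, 0.856 times with GSK126, 1.70 times with astemizole and 1.97 times with knockdown. Condensin SMC transcripts were thus in excess over cohesin SMC transcripts in the controls and with GSK126, and the order was the other way round with astemizole and knockdown. In ranking, SMC4, NCAPD2 and SMC3 were the 3 highest of the 10 with vehicle, GSK126 and scramble shRNA, whereas SMC3 came first with astemizole and knockdown. NCAPG came last in every column but vehicle, where NCAPD3 did. Without replicates, no neighbours in these orders can be called different.

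**Figure D3:**
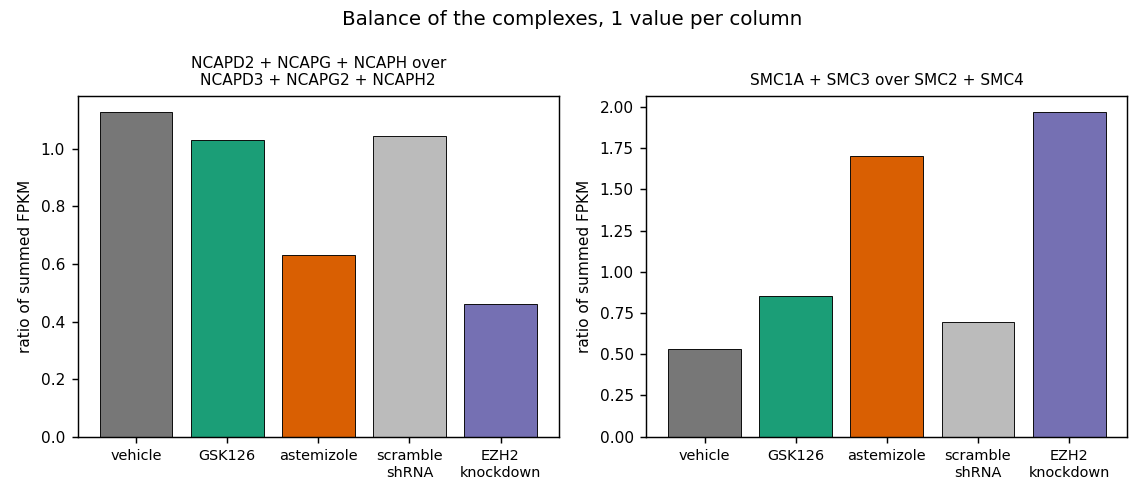
Ratios of summed FPKM within each of the 5 columns, 1 bar per column with no error: condensin I over condensin II subunits (left) and cohesin over condensin SMC pairs (right). The left ratio is 1.03 to 1.13 in 3 columns and 0.632 and 0.461 with astemizole and knockdown, and the right ratio passes 1 only in those last 2.

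Further genes of these pathways came from 7 lists with 43 members, of which 39 reached 1 FPKM in any column; SMC1B, REC8, RAD21L1 and EID3 did not. Of these 39, 4 were at least 2-fold lower with GSK126, 15 with astemizole and 14 with knockdown, and 0 were higher in each; the shares of all genes are those given above. The median log2 ratio of the 39 was -0.22, -0.57 and -0.40. The 4 called with GSK126 were CDCA5, PTTG1, CDK1 and AURKB, and none was 2-fold lower than the scramble column. With GSK126 and scramble shRNA, CDCA5 was at 21.9 and 39.7 FPKM and PTTG1 at 146 and 140. CDK1 was at 112 and 155 FPKM in those columns, and AURKB at 24.5 and 37.1. Of the remaining cohesin ring genes 1 of 3 was 2-fold lower, in 1 comparison. RAD21, the kleisin, was at 99.7 FPKM with vehicle and 83.5 with scramble shRNA, while GSK126 had 72.3, astemizole 42.4 and knockdown 50.3, giving -0.46, -1.22 and -0.72 in the 3 comparisons. STAG2 had 0.03, -0.08 and -0.03, while its paralogue STAG1 had -0.12, -0.98 and -0.99. Of the 5 genes that load or release cohesin, none passed 2-fold: the loader NIPBL had 0.27, 0.07 and 0.27, and PDS5B, which binds cohesin with the releasing factor WAPL, had -0.11, -0.43 and 0.46. Its paralogue PDS5A was the lowest of these genes with knockdown, at -0.35.

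Several genes that establish, protect or cut cohesion in dividing cells had ratios as low as those of condensin I. In the list of 9 for acetylation and sister chromatid cohesion, 1, 4 and 4 were at least 2-fold lower with GSK126, astemizole and knockdown. The lowest in each was CDCA5, which encodes sororin, at -1.02, -2.25 and -3.52. ESCO2, the acetyltransferase that modifies SMC3 in S phase, had -0.79, -2.12 and -3.33, while ESCO1, the related enzyme active outside S phase, had 0.02, -0.04 and 0.18. The cohesion factors DSCC1 and WDHD1 had -1.95 and -1.61 with astemizole and -2.23 and -1.96 with knockdown, and the deacetylase gene HDAC8 had 0.14 with astemizole. All 4 genes of protection and cleavage were at least 2-fold lower with astemizole and with knockdown, and 1 with GSK126. The securin gene PTTG1 had -1.04, -3.88 and -3.21, but it also had -1.11 between the controls, at 140 FPKM with scramble shRNA and 303 with vehicle, and GSK126, at 146, was not below the scramble value. SGOL1 and SGOL2, the shugoshins that shield centromeric cohesin, had -2.02 and -2.26 with astemizole and -2.31 and -2.05 with knockdown. ESPL1, which encodes separase, had -0.59, -1.95 and -2.23.

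The SMC5/6 complex, a further SMC complex that acts in DNA repair, had no member past 2-fold among 6 of 7 kept, with medians of -0.14, -0.23 and -0.03. Its ATPase genes SMC5 and SMC6 had 0.14 and -0.58 with knockdown, and with GSK126 the lowest and highest were NSMCE4A at -0.40 and NSMCE1 at -0.07. With astemizole NSMCE2 was the highest at -0.12 and SMC6 the lowest at -0.41. Of the meiotic cohesin genes SMC1B, REC8, STAG3 and RAD21L1, STAG3 alone reached 1 FPKM, and it had -0.14, -0.53 and -0.24. In the list of 11 mitotic chromosome scaffold genes and condensin regulators, 2, 6 and 6 were at least 2-fold lower. TOP2A, the topoisomerase that shares the chromosome axis with condensin, had -0.73, -2.99 and -3.73, whereas TOP2B had -0.22, -0.66 and -0.22. KIF4A, a kinesin that binds condensin, had -2.54 and -3.16 with astemizole and knockdown, and MKI67 had -1.79 and -3.20, but -0.07 with GSK126. Between the controls MKI67 had 0.56 for scramble shRNA against vehicle, so the size of its ratios depends on the control used. Its level with GSK126 was close to vehicle and further below scramble shRNA. The kinases that phosphorylate condensin had low ratios: CDK1 at -1.06, -2.81 and -3.20, AURKB at -1.26, -2.79 and -3.36, and PLK1 just short of 2-fold with GSK126, then at -3.23 and -3.28. Its level with GSK126, 35.2 FPKM, was close to the 35.3 of scramble shRNA, beside 71.3 with vehicle. CDK1 and AURKB also differed between the controls, at -0.60 and -0.68 for scramble shRNA against vehicle. MCPH1, an inhibitor of condensin II, had -0.15, -0.09 and -0.11, and CTCF, which halts cohesin on chromatin, -0.13, -0.27 and -0.17.

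**Figure D4:**
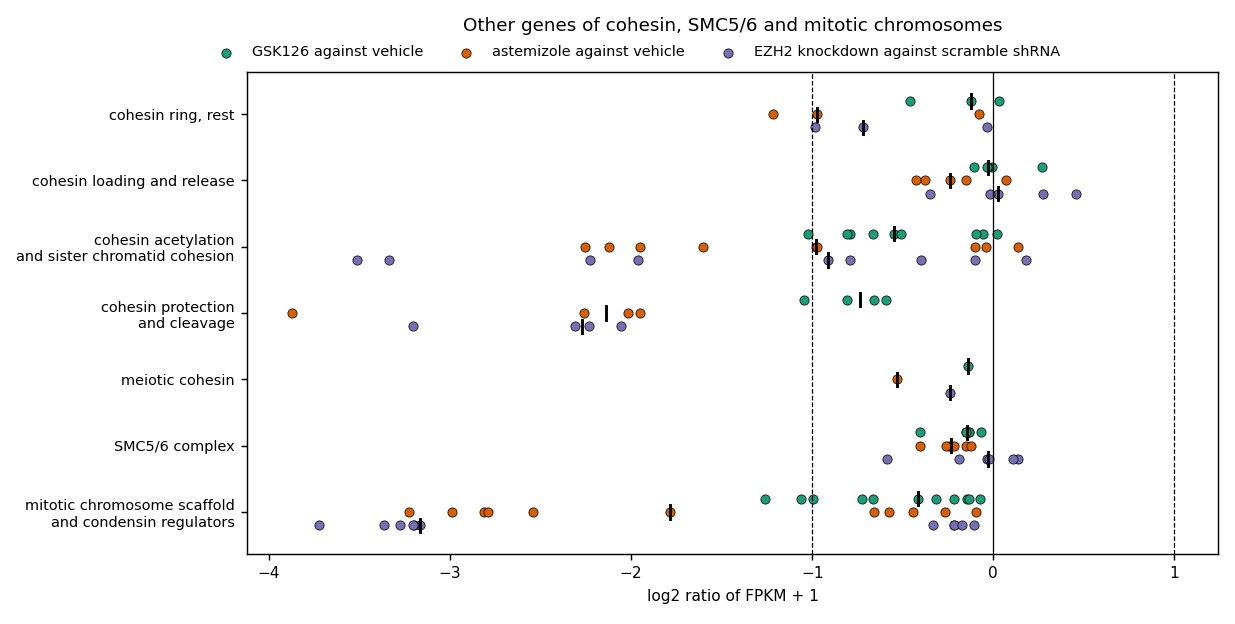
Log2 ratios of FPKM + 1 of the 39 further genes kept, by list, with 1 point per gene and comparison and a black bar at each list's median. All 4 protection and cleavage genes lie past the dashed 2-fold line with astemizole and knockdown, and no gene of loading and release or of SMC5/6 does.

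Genes with the most similar profile over the 5 columns were sought for 1 gene of each complex, by the Euclidean distance between mean-centred log2 values of FPKM + 1 among the 9662 genes reaching 5 FPKM in any column. Nearest to NCAPG were BUB1 at a distance of 0.131 log2 units, HJURP at 0.146 and SHCBP1 at 0.179. BUB1, a checkpoint kinase, was at 22.9 FPKM with vehicle and 19.2 with scramble shRNA, while GSK126 had 14.1, astemizole 3.40 and knockdown 1.41. Nearest to NCAPD3 were HK2, a hexokinase gene, at 0.165, BRI3BP at 0.272 and PIK3AP1 at 0.305. HK2 was at 12.8 and 15.8 FPKM in the controls and at 8.13, 4.22 and 5.53 in the perturbed columns. Like NCAPD3 it was higher with scramble shRNA than with vehicle, as were BRI3BP and PIK3AP1. The choice by nearness over these same values favours such likeness, so it is no separate result. Nearest to SMC3 were RNF138 at 0.0436, PNN at 0.0594 and FAM210A at 0.0890. These are descriptions of 5 values a gene.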

How the data were processed

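The authors' deposited table gives FPKM for 5 columns made with TopHat2 and Cuffdiff on the build hg19, per the submitters' processing notes, versions not given. The sources used here do not give the annotation, filters or strand setting. They also do not say how the knockdown column was made. That it stands for both hairpin libraries is an assumption. The column spelled "astemazole" was matched to the astemizole library by its title. Of 28503 lines, 27 names turned into dates and 1675 short non-coding RNA genes were left out, and the 12934 genes that reached 1 FPKM in any column were kept. Ratios are log2 of FPKM + 1, counted at 2-fold. With 1 value per condition there is no test. Columns were mapped by the labels. Only the ratio and the 2-fold count, not the other steps, were tried on simulated data (Python 3.11.15, pandas 2.3.3). Alternatives were a pseudocount of 0.1 FPKM, TPM rescaling, centring, the other control column, a 1.5-fold threshold and no filter. TPM rescaling divided each column by its sum over all 28503 lines, those left out included. Named were all members, EZH2, from each pathway list members at its ends or past 2-fold, and the 3 nearest profiles of NCAPG, NCAPD3 and SMC3; TOP2B, CTCF and values of list members outside this rule were added after they were seen. Members and lists were chosen with earlier results of these data known. Promoter sequences are from RefSeq (GRCh38.p14) and overlaps from GENCODE; no other coordinates are printed because the builds differ.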

Additional observations from a re-analysis of the deposited data

How the results depend on the processing

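Of the 30 member ratios in the 3 comparisons, 30 stayed below 0 with a pseudocount of 0.1 FPKM, after centring and with the other control column, and 29 after TPM rescaling, SMC1A with GSK126 being the exception. The side of 2-fold changed for SMC4 with GSK126 after TPM rescaling and with the other control, which left 0 members called, and for NCAPD3 with knockdown against vehicle. Median log2 ratios of the 10 members with the 0.1 pseudocount, TPM rescaling, centring and the other control were -0.60, -0.38, -0.55 and -0.54 for GSK126, -1.97, -1.86, -1.82 and -1.77 for astemizole, and -2.17, -2.14, -2.09 and -2.26 for knockdown. For scramble shRNA against vehicle the median turned to 0.0907 after TPM rescaling and was -0.0636 after centring. At 1.5-fold, 5 members were lower with GSK126, of which only SMC4 and NCAPH stayed so after TPM rescaling and with the other control. Counts of all genes at least 2-fold lower moved with GSK126 from 123 to 237 with the 0.1 pseudocount, 71 after TPM rescaling and 51 against scramble shRNA. With the 0.1 pseudocount they were 1005 for knockdown in place of 660 and 304 between the controls in place of 110. At 1.5-fold they were 827, 1889, 1518 and 604 for GSK126, astemizole, knockdown and the controls. The causes were not tested. No paired analysis was possible because each condition has 1 value in the table, and for the same reason no replicate could be left out. Depth is unknown, so no counting interval is given for low values such as NCAPG in the knockdown column.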
